A study of Mus musculus with 12 samples.

Results

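The Gadd45 family of stress genes was followed in mouse liver during the onset of ConA-induced fulminant hepatitis. Its 3 members, Gadd45a, Gadd45b and Gadd45g, were found by gene symbol in the annotation of the Affymetrix mouse genome array and were measured by 5 probe sets, of 45037 probe sets tested and 18193 genes named. A probe set is a group of short oligonucleotides read as 1 signal. Gadd45a and Gadd45g had 1 probe set each and Gadd45b had 3. The family was chosen by its measured signal changes at 1, 3 and 6 h after ConA against 0 h, which were already known, so these changes are described without a p-value.

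Total RNA of whole liver from male Balb/C mice, 8 to 10 weeks old, was hybridised to 12 arrays, in 4 groups of 3: a control group (0 h) and groups sampled 1, 3 and 6 h after 1 injection of ConA (concanavalin A, a plant lectin that activates T cells) into a tail vein at 20 mg/kg. The labels call the 0 h mice untreated, whereas the study's methods state that control mice received PBS. No control group of a later time was among the samples, so effects of ConA, of the injection itself and of time of day cannot be told apart. The deposited signals had medians per array from 13.6 to 20.4, and the number of arrays limits the precision. Nothing in the sources used here says whether an array stands for 1 mouse or a pool, so the spread between arrays may be partly technical.

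GADD45 proteins are small acidic proteins with no known enzyme activity, which act by binding other proteins. They bind and activate the kinase MTK1 (Map3k4) at the top of the p38 and JNK stress kinase modules, bind the cell cycle proteins p21, PCNA and CDK1, and take part in DNA excision repair and active DNA demethylation. Gadd45a is a classical target of p53, Gadd45b was found as an early gene of myeloid differentiation and is induced by NF-kB and TGF-beta, and Gadd45g was found as a gene induced by interleukin 2 and oncostatin M in lymphoid and other cells. In T cells, Gadd45b and Gadd45g act through p38 in the production of interferon gamma.

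The sequences around the 3 start sites are shown because all members lay above their controls at 1 h but differed in their later course. They are RefSeq windows on build GRCm38.p6, from 250 bases before to 50 bases after the gene's start, and all 3 members matched the table by symbol. Gadd45a lies on chromosome 6 on the minus strand (gene at chr6:67035096-67037407, window chr6:67037358-67037657), Gadd45b on chromosome 10 on the plus strand (gene at chr10:80930091-80932204, window chr10:80929841-80930140), and Gadd45g on chromosome 13 on the plus strand (gene at chr13:51846675-51848475, window chr13:51846425-51846724). Capitals mark matches to the motifs named after the sequences, on either strand.
Gadd45a: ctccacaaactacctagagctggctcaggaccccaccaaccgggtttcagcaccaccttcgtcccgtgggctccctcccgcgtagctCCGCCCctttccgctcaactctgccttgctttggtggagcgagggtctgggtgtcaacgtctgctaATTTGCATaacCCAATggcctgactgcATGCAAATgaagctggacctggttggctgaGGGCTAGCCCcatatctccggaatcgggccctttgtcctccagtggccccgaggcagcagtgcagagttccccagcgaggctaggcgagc
Gadd45b: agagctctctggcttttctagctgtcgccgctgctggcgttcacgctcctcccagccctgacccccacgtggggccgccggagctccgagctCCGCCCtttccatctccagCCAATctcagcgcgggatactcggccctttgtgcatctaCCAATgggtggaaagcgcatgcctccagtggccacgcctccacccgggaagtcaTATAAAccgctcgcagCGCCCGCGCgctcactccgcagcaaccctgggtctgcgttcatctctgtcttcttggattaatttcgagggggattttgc
Gadd45g: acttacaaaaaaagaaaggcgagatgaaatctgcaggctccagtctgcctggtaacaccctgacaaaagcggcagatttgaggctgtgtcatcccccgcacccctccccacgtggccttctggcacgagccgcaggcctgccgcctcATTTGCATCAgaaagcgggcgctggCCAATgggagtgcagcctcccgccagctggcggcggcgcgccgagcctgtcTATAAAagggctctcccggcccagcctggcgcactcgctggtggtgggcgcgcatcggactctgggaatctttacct

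The 3 windows were alike in base composition, with a GC content of 61% for Gadd45a, 62% for Gadd45b and 62.3% for Gadd45g. A CCAAT box (CCAAT) was found in all 3, at 1 place in Gadd45a and Gadd45g and at 2 places in Gadd45b, and in 37.4% of the 32851 mouse promoters searched in the same way. A TATA box (TATAAA, 13.6% of promoters) began 46 bases before the start of Gadd45b and 27 bases before that of Gadd45g, and the Gadd45a window held none. A GC box (GGGCGG, 35.7%) was found in Gadd45a and Gadd45b, and an EGR motif (GCGNGGGCG, 5.55%) only in Gadd45b among the members. The Gadd45a window held a p53 decamer (8.36% of promoters) that began 40 bases before the start. An octamer (ATTTGCAT, 1.74%), which was added to the motifs after the sequences had been read, occurred at 2 places in Gadd45a and at 1 in Gadd45g, where it overlapped an ATF4 element (TGATGCAA, 0.895%). No match was found in any of the 3 windows to the kappaB motif (4.51% of promoters), AP-1 (TGANTCA, 7.81%), CRE (TGACGTCA, 1.79%), STAT (TTCNNNGAA, 8.3%), FOXO (GTAAACA, 3.65%) or the CArG box (1.63%). These matches describe letters in the window and not bound sites.

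Signals of all 3 genes were higher in the ConA groups than in the control group, by amounts that differed widely between the genes. The 3 arrays of a ConA group lay above all 3 control arrays for 5 of 5 probe sets at 1 h, 5 of 5 at 3 h and 3 of 5 at 6 h. The share of all probe sets separated in this way is not given here, so how common such a separation was stays unknown. The changes were taken from 1 limma fit across all probe sets, in which a call means a Benjamini-Hochberg adjusted p under 0.05. Of the 5 probe sets, 4 were called higher at 1 h, against 1.29% of all probe sets, 4 at 3 h, against 3.77%, and 3 at 6 h, against 12%. No probe set was called lower, against 0.255%, 9.83% and 8.37% of all probe sets at 1, 3 and 6 h. Nothing is read from these counts, since the members were chosen with the same comparisons known. The probe set not called at 1 h was that of Gadd45a and the one not called at 3 h was the dim probe set 1420197_at of Gadd45b, and both were not called at 6 h.

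**Figure D1:**
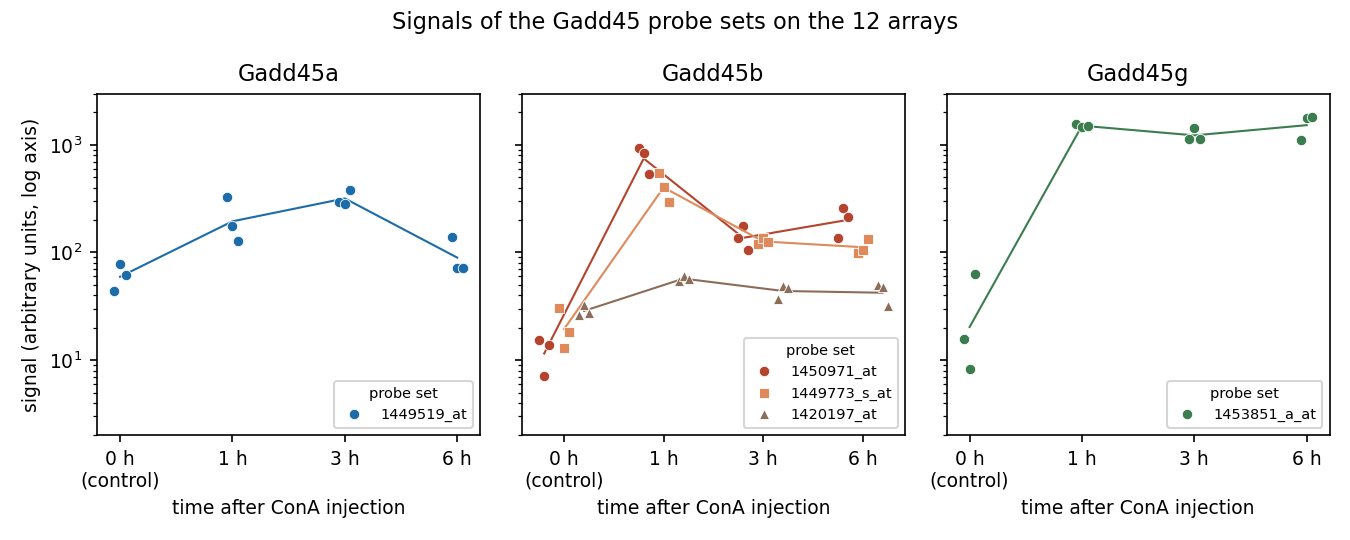
Signal of each Gadd45 probe set (vertical axis, arbitrary units on a log axis) on each of the 12 arrays by hours after ConA injection, with the control at 0 h (horizontal axis), 1 point per array, with lines through the geometric means of the groups. Gadd45g stayed between 1105 and 1820 on all 9 ConA arrays, Gadd45b was highest at 1 h (536 to 932 for probe set 1450971_at) and Gadd45a highest at 3 h (282 to 384).

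Gadd45b, which limits JNK signalling downstream of NF-kB and is needed for normal liver regeneration in mice, had a sharp maximum at 1 h. Its main probe set, 1450971_at, which is the one with the highest mean, had signals of 15.5, 7.14 and 13.8 on the control arrays, 932, 834 and 536 on the 1 h arrays, 136, 178 and 106 on the 3 h arrays, and 136, 262 and 215 on the 6 h arrays. The groups at 1, 3 and 6 h all lay above the control group, the group at 3 h lay wholly below that at 1 h, and the groups at 3 h and 6 h overlapped. The mean signal was 12.2 ± 4.43 at 0 h, 768 ± 206 at 1 h, 140 ± 36.1 at 3 h and 204 ± 63.6 at 6 h (SD, n = 3 each). The log2 change against 0 h was 6.02 at 1 h, 3.57 at 3 h and 4.10 at 6 h (SE 0.37), or 64.8-fold, 11.9-fold and 17.1-fold of the geometric means. It had the 4th largest rise of all probe sets at 1 h, but ranked 114 at 3 h and 106 at 6 h. From 1 h to 3 h the signal fell by 2.45 on the log2 scale, which is 5.46-fold.

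Both other probe sets of Gadd45b were also highest at 1 h but gave smaller changes. Probe set 1449773_s_at, whose suffix marks oligonucleotides that can match more than 1 transcript, had signals of 30.7, 13.1 and 18.3 on the control arrays, 542, 410 and 293 on the 1 h arrays, 120, 137 and 124 on the 3 h arrays, and 98.0, 106 and 134 on the 6 h arrays. Its ConA groups did not overlap the control group at any time, and the log2 change was 4.37 at 1 h, 2.70 at 3 h and 2.52 at 6 h (SE 0.31). Probe set 1420197_at stayed dim, at 26.0, 32.7 and 27.6 on the control arrays, 54.6, 60.4 and 56.8 on the 1 h arrays, 36.9, 49.2 and 46.5 on the 3 h arrays, and 50.1, 47.8 and 31.5 on the 6 h arrays. Its group at 6 h overlapped the control group, and its log2 change was 1.00 at 1 h, 0.62 at 3 h and 0.56 at 6 h (SE 0.19). The call of this probe set at 1 h was lost after quantile normalization (log2 change 0.90) and median centring (0.90), while at 3 h it was gained (0.88 and 0.86), and its changes at 1, 3 and 6 h all sat near the threshold. The call at 1 h was also lost without control replicate 1, 2 or 3, ConA 1 h replicate 1, 2 or 3, or ConA 3 h replicate 2 or 3 (log2 change 0.93 to 1.09), and without ConA 6 h replicate 3 the probe set was called at 3 h (0.62) and at 6 h (0.77). Over the 12 arrays the log2 signals of the main probe set had a Pearson's r of 0.98 with 1449773_s_at and 0.83 with 1420197_at, as a description over arrays that share 4 time points. After the group means were subtracted these values were 0.76 and -0.32, which 3 arrays per group estimate only imprecisely.

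Gadd45g, which was identified as a cytokine-inducible gene and inhibits CDK1, rose as early as Gadd45b but stayed at its plateau. Probe set 1453851_a_at had signals of 15.8, 8.33 and 63.5 on the control arrays, 1562, 1467 and 1493 on the 1 h arrays, 1138, 1435 and 1125 on the 3 h arrays, and 1105, 1761 and 1820 on the 6 h arrays. No ConA array came near the highest control array, and the 3 groups after ConA differed little from each other: the group at 3 h lay just below that at 1 h (log2 change -0.30), and the group at 6 h overlapped both. The mean signal was 29.2 ± 29.9 at 0 h, 1507 ± 49.1 at 1 h, 1233 ± 176 at 3 h and 1562 ± 397 at 6 h (SD, n = 3 each). The log2 change against 0 h was 6.21 at 1 h, 5.92 at 3 h and 6.23 at 6 h (SE 0.60), or 74.3-fold, 60.4-fold and 75.1-fold, with ranks of 2, 18 and 13 among all probe sets.

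The size of the Gadd45g change rested on the control arrays. Their highest signal was 7.62 times the lowest, and the SD of log2 signals was 0.05 at 1 h, 0.20 at 3 h and 0.40 at 6 h, against 1.5 in the control group. Without control replicate 3, the highest, the log2 changes were 7.04, 6.74 and 7.05 at 1, 3 and 6 h (131-fold, 107-fold and 133-fold). Without control replicate 2, the lowest, they were 5.57, 5.27 and 5.59 (47.6-fold, 38.7-fold and 48.1-fold). In a fit of only the control and 1 h arrays the change of 6.21 was not called. The control signals of Gadd45g and of the main Gadd45b probe set were above the floor of 3.04 on every array. Detection calls were not used here, and whether background made up part of these control signals was not tested.

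Gadd45a, the p53 target of the family, had its maximum at 3 h and the smallest changes among the main probe sets of the family. Probe set 1449519_at had signals of 43.5, 78.7 and 61.4 on the control arrays, 329, 177 and 127 on the 1 h arrays, 296, 282 and 384 on the 3 h arrays, and 140, 71.9 and 71.4 on the 6 h arrays. The groups at 1 h and 3 h lay above the control group and overlapped each other, and at 6 h 2 of 3 arrays were back within the control range. The mean signal was 61.2 ± 17.6 at 0 h, 211 ± 105 at 1 h, 321 ± 55.3 at 3 h and 94.6 ± 39.7 at 6 h (SD, n = 3 each). The log2 change against 0 h was 1.71 at 1 h, 2.42 at 3 h and 0.59 at 6 h (SE 0.39), or 3.27-fold, 5.34-fold and 1.51-fold. From 3 h to 6 h the signal fell by 1.83 on the log2 scale, which is 3.54-fold, and the 3 arrays at 6 h lay below all 3 arrays at 3 h. The change of 1.71 at 1 h was called when only the probe sets brighter than the median were tested.

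**Figure D2:**
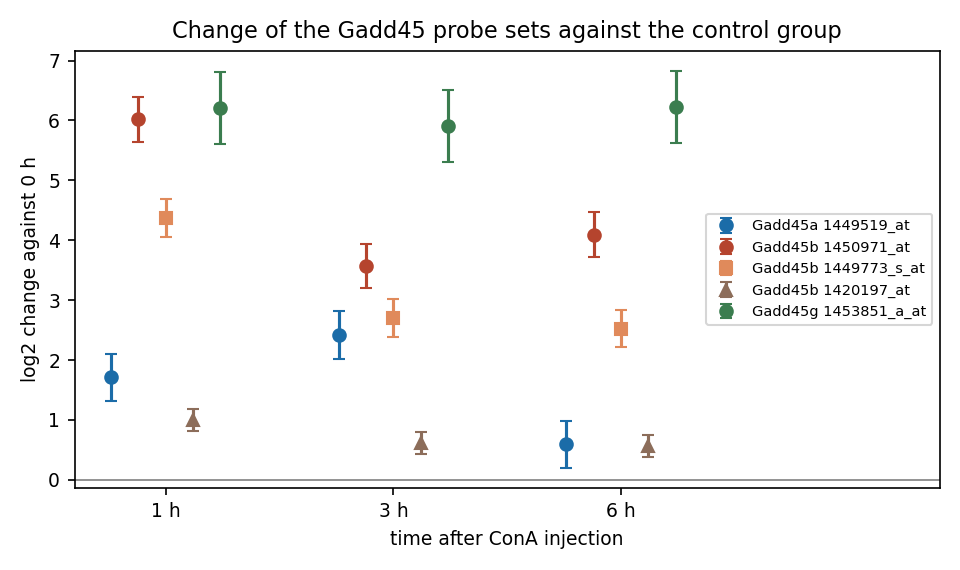
Log2 change of the 5 Gadd45 probe sets against the control group (vertical axis) by hours after ConA injection (horizontal axis), as the estimate and its standard error from the limma fit of 3 arrays per group. Gadd45g lies near 6 at all 3 times, the main Gadd45b probe set falls to 3.57 at 3 h, and Gadd45a passes through 2.42 at 3 h to 0.59 at 6 h.

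The 3 paralogs thus followed different courses, which were compared as differences of log2 changes within arrays, since levels of different probe sets cannot be set against each other. Only the main probe set of each gene entered these differences. By it, the rise of Gadd45b exceeded that of Gadd45a by 4.31 at 1 h, 1.15 at 3 h and 3.50 at 6 h (SE 0.66). The rise of Gadd45g exceeded that of Gadd45a by 4.50, 3.50 and 5.64 at the same times (SE 0.84). Between Gadd45g and Gadd45b the difference was small at 1 h, at 0.20 (SE 0.53), and then opened to 2.35 at 3 h and 2.14 at 6 h. Without control replicate 3 these differences between Gadd45g and Gadd45b were 0.89, 3.04 and 2.83, and over all fits that left out 1 array the difference at 1 h ran from -0.20 to 0.89, so that the order of both at 1 h was not settled. For the main probe sets, the differences of Gadd45b and Gadd45g from Gadd45a were positive at every time in each of these fits. The place of Gadd45b depends on the probe set. Its probe set 1449773_s_at had log2 changes of 4.37, 2.70 and 2.52 at 1, 3 and 6 h, close to Gadd45a at 3 h (2.42) and below Gadd45g at 1 h (6.21). Its dim probe set 1420197_at, at 1.00, 0.62 and 0.56, lay below Gadd45a at 1 h (1.71) and 3 h and near it at 6 h (0.59).

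In percentile terms, the main Gadd45b probe set was brighter than 31.1 to 48.2% of the probe sets on the control arrays and than 93.6 to 95.4% at 1 h. Gadd45g was brighter than 34.1 to 72.5% on the control arrays and than 96.6 to 98.1% on the ConA arrays. Gadd45a was brighter than 65.8 to 73.7% on the control arrays and than 90.0 to 92.3% at 3 h. Each percentile is taken within 1 array and does not depend on scaling between arrays. Over the 12 arrays the log2 signals had a Pearson's r of 0.90 between Gadd45b and Gadd45g, 0.60 between Gadd45a and Gadd45g and 0.55 between Gadd45a and Gadd45b. With the group means subtracted the values were 0.56, -0.23 and -0.32. With 3 arrays per group they are too imprecise to settle whether the paralogs vary together among arrays of the same time. These are descriptions over arrays that share 4 time points.

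The genes with the most similar pattern over the 12 arrays were different for each paralog. They were sought by Pearson's r among 8911 genes with a mean log2 signal above the median. Since r mainly follows the group means, a course like that of the paralog follows from this choice for all genes named here and below. For Gadd45a they were Rnd3 (r = 0.94) and Rnd1 (0.90), then Arid5b (0.88), a DNA-binding protein, Pim1 (0.87), a serine/threonine kinase, and Nuak2 (0.87), a kinase related to AMPK. Rnd1 also had its highest values at 3 h, with log2 changes of 4.05 at 1 h, 6.27 at 3 h and 2.38 at 6 h, and Rnd3 had 1.58, 2.05 and 0.27.

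For Gadd45b the most similar genes were immediate-early genes and a chemokine: Junb (r = 0.97) and Fos (0.97), both AP-1 subunits, Csrnp1 (0.96), a nuclear protein induced by AXIN1 in human cells, Zfp36 (0.96), which destabilises cytokine mRNAs, and Cxcl2 (0.95), which attracts neutrophils. Their log2 changes were also highest at 1 h, at 6.00 for Fos and 7.55 for Cxcl2, against 4.46 and 4.58 at 3 h. For Gadd45g they were Socs3 (r = 0.98), the feedback inhibitor of cytokine signalling through STAT3, Shb (0.97), an adaptor protein, Heatr6 (0.97), Cxcl1 (0.97), a neutrophil chemokine, and Cebpd (0.96), a transcription factor of the acute phase. Socs3 held a plateau like that of Gadd45g, with log2 changes of 5.40 at 1 h, 4.95 at 3 h and 5.11 at 6 h, and Shb held one at a lower size, with 0.81, 0.81 and 0.82. An r above 0.9 was reached by 2 genes with Gadd45a, 19 with Gadd45b and 45 with Gadd45g. By Spearman's rank correlation 1 of the 5 genes was shared for Gadd45a and none for Gadd45b or Gadd45g, so the names depend on the measure.

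**Figure D3:**
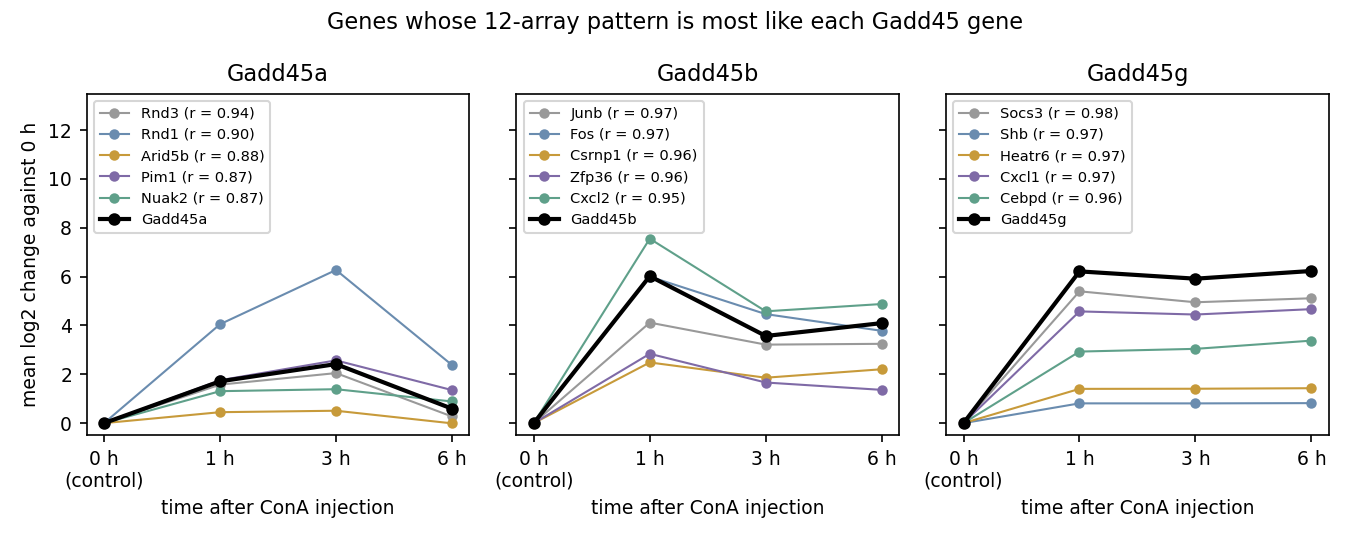
Mean log2 change against the control group (vertical axis) by hours after ConA injection (horizontal axis) for each Gadd45 gene (black) and the 5 genes with the highest Pearson's r to it over the 12 arrays (colours). Lines of Gadd45a and its neighbours turn at 3 h, those of Gadd45b peak at 1 h, and those of Gadd45g stay nearly level from 1 h to 6 h.

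Genes that act with the family or upstream of it were taken from 7 lists, which were chosen with earlier results of these data known. An excess of list genes over all genes, here or below, may follow from that choice, so nothing is read from it. In the lists 86 of 94 genes were measured, and these were tested over all 18193 genes with limma. At 1 h 16 rose, none fell and 70 did not pass, against 1.5% higher and 0.148% lower of all genes. At 3 h 26 rose and 17 fell, against 5.15% and 14.7%, and at 6 h 33 rose and 9 fell, against 15.4% and 12.7%. The median log2 change of all genes was 0.08 at 1 h, -0.21 at 3 h and 0.02 at 6 h as deposited, and at 3 h it was -0.05 after quantile normalization. At 3 h the split over all genes moved with it, to 1447 higher and 1637 lower after quantile normalization, against 937 and 2676 as deposited (2739 and 2655 probe sets, against 1700 and 4428), and 11 list genes in place of 17 were then lower. Without control replicate 1 or 2 the number of list genes lower at 3 h was also 11. At 6 h the 9 lower list genes became 3 without ConA 6 h replicate 3, 4 when control replicate 1 was left out and 5 when control replicate 2 was.

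**Figure D4:**
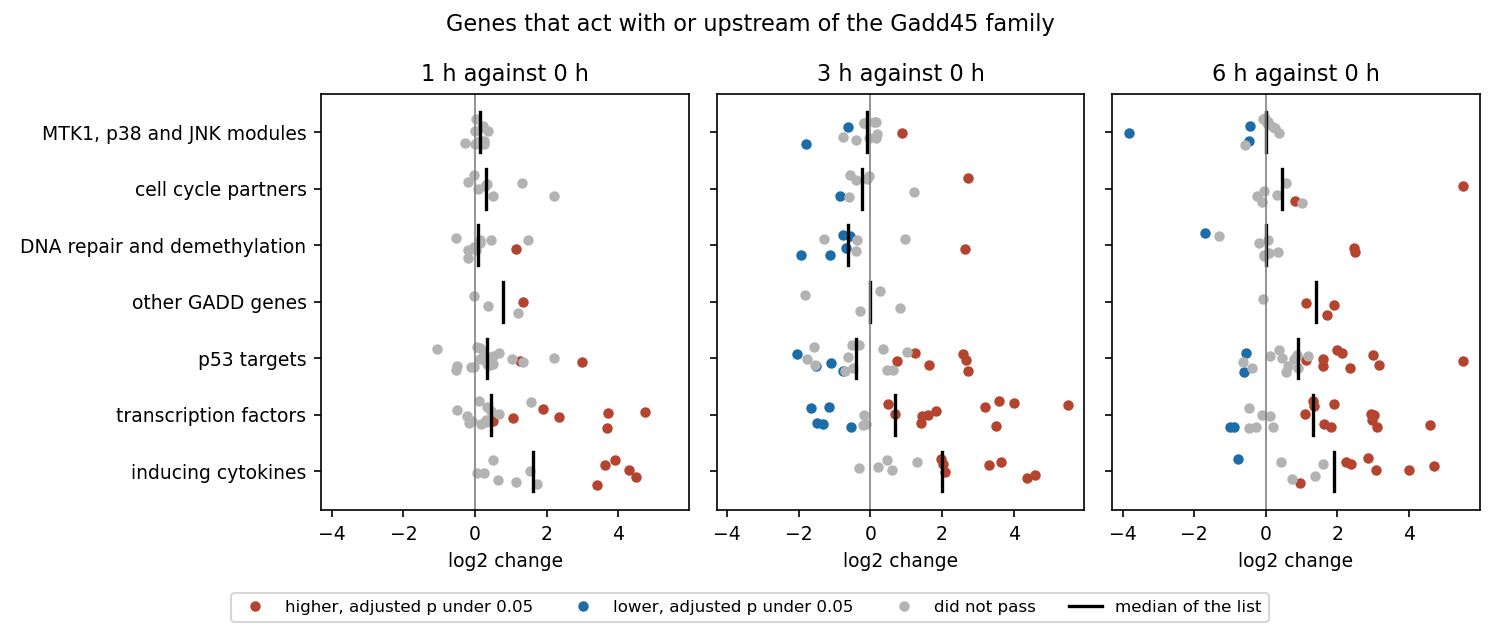
Log2 change against the 0 h control group (horizontal axis) at 1, 3 and 6 h of the measured genes of 7 lists (rows), 1 point per gene, coloured by whether the adjusted p from limma was under 0.05, with a black bar at the median of each list. The cytokine list has the highest medians (1.63 at 1 h, 2.00 at 3 h and 1.91 at 6 h), while the medians of the MTK1, p38 and JNK list lie between -0.11 and 0.14.

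Some of the kinases through which GADD45 proteins act passed the test, in shares to be read against those of all genes. Of their list 8.33% rose and 16.7% fell by 3 h, against 5.15% and 14.7% of all genes. By 6 h 25% had fallen, against 12.7%, and none had risen, against 15.4%. Little can be read from the lack of calls in the 1 h group, where 1.5% of all genes were called higher and 0.148% lower. Of 12 measured genes of the MTK1, p38 and JNK list, none passed at 1 h, 1 rose and 2 fell at 3 h, and 3 fell at 6 h. The median log2 change was 0.14 at 1 h, -0.11 at 3 h and near 0 at 6 h, and the value at 3 h turned positive after quantile normalization (0.06) and median centring (0.14). At 3 h 1 gene fell without control replicate 1 or 2 or ConA 3 h replicate 1, and at 6 h 1 fell without control replicate 1 or ConA 6 h replicate 3, and 1 rose without ConA 1 h replicate 1 or ConA 3 h replicate 2 or 3. Map2k6, a kinase that phosphorylates p38, had signals of 9.29, 6.47 and 10.0 on the 6 h arrays, against 122, 137 and 103 on the control arrays. It fell by 3.83 on the log2 scale at 6 h (SE 0.22, adjusted p = 5.4e-06), and by 1.79 at 3 h (adjusted p = 0.00072). The study's real-time RT-PCR marked Map2k6 as significantly different from control at 1 h, with a higher value, but not at 3 h or 6 h. It also marked the value at 6 h, which was lower, as different from that at 1 h. On the arrays the log2 change of Map2k6 at 1 h was -0.27 and did not pass. Map3k5 (ASK1), a stress-activated kinase upstream of p38 and JNK, was 1.83-fold higher at 3 h (log2 change 0.87, adjusted p = 0.0086).

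Map3k4, the direct partner of all 3 GADD45 proteins, fell by 0.62 on the log2 scale at 3 h (SE 0.17, adjusted p = 0.030). This call was lost after quantile normalization (log2 change -0.40) and median centring (-0.37), and without control replicate 1 (-0.56) or 2 (-0.59) or ConA 3 h replicate 1 (-0.53) or 2 (-0.54). Mapk9 (JNK2) fell by 0.46 at 6 h (adjusted p = 0.036), which was lost without control replicate 1 (-0.49), 2 (-0.40) or 3 (-0.49), ConA 3 h replicate 3 (-0.46) or ConA 6 h replicate 1 (-0.5) or 3 (-0.33). The p38 gene Mapk14 had log2 changes of 0.24, 0.18 and 0.20 at 1, 3 and 6 h and the JNK1 gene Mapk8 of 0.00, -0.39 and 0.06, and neither passed at any time. Mapk14 and Mapk8, and below them Ccnb2, Ddit4l, Sesn1, Bbc3, Foxo1, Foxo3, Il18, Osm and the single cell type markers, were named after their values had been seen.

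Among the cell cycle proteins that bind GADD45, Cdkn1a had the largest change of the list at 6 h. Cdkn1a (p21), the CDK inhibitor induced by p53, had signals of 330, 794 and 1098 on the 6 h arrays, against 9.39, 12.3 and 26.4 on the control arrays. Its log2 change of 2.20 at 1 h did not pass (adjusted p = 0.052), that at 3 h was 2.73 (adjusted p = 0.0033), and that at 6 h reached 5.51 (SE 0.46, adjusted p = 3.5e-05). Of the 8 measured genes none passed at 1 h, against 1.5% of all genes higher and 0.148% lower. At 3 h 1 rose and 1 fell (12.5% each), against 5.15% and 14.7% of all genes. At 6 h 2 rose (25%) and none fell, against 15.4% and 12.7%. At 1 h 1 was higher without control replicate 3 or ConA 6 h replicate 1 or 3. At 3 h 2 were higher without ConA 1 h replicate 2, 0 were lower without control replicate 1 or 2 or ConA 3 h replicate 1 or 3, and 2 were lower without control replicate 3 or ConA 1 h replicate 1 or 3. Ccnb2 (cyclin B2), the regulatory subunit of CDK1, had log2 changes of 1.32, 1.22 and 1.01 at 1, 3 and 6 h (adjusted p = 0.19, 0.056 and 0.087), with the 3 arrays of each ConA group above all 3 control arrays. Npm1 (nucleophosmin), which binds Gadd45a, was 1.77-fold higher at 6 h (log2 change 0.82, adjusted p = 0.00025). Cdkn1b (p27) fell by 0.84 at 3 h (adjusted p = 0.030), which was lost after quantile normalization (log2 change -0.63), median centring (-0.60), and without control replicate 1 (-0.74) or 2 (-0.72) or ConA 3 h replicate 1 (-0.81) or 3 (-0.74). Pcna, the sliding clamp of DNA replication, had its largest difference at 3 h (log2 change -0.39, adjusted p = 0.23), as had the mitotic kinase Cdk1 (-0.58, adjusted p = 0.23). Gadd45gip1, which encodes a protein that binds GADD45 proteins, had its largest difference at 6 h (log2 change 0.32, adjusted p = 0.19).

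Genes of DNA repair and demethylation, in which GADD45 proteins are cofactors, moved in both directions. Of 10 measured genes 1 rose at 1 h (10%) and none fell, against 1.5% and 0.148% of all genes. At 3 h 1 rose and 5 fell (10% and 50%), against 5.15% and 14.7%. At 6 h 2 rose and 1 fell (20% and 10%), shares near the 15.4% and 12.7% of all genes. At 6 h 0 were lower without control replicate 1 or ConA 6 h replicate 2 or 3, and 1 was higher without control replicate 1 or 3 or ConA 6 h replicate 1. The median log2 change was -0.63 at 3 h, against -0.21 for all genes (-0.39 for the list after quantile normalization), and the number lower at 3 h was 3 after quantile normalization and without control replicate 1 or 2 or ConA 3 h replicate 1, 2 or 3. Apobec1, a cytidine deaminase that edits apolipoprotein B mRNA, had signals of 533, 645 and 681 on the 3 h arrays, against 101, 79.8 and 116 on the control arrays, a log2 change of 2.66 (SE 0.16, adjusted p = 7.9e-06). Ing1, a chromatin reader that recruits Gadd45a, fell by 1.13 at 3 h (adjusted p = 0.0012). Mbd4, a DNA glycosylase, fell by 1.95 at 3 h (adjusted p = 0.019), which was lost without control replicate 3 (-1.77) or ConA 3 h replicate 2 (-1.73). Apobec3 was 5.51-fold higher at 6 h (log2 change 2.46, adjusted p = 0.018) from dim control signals, and its call was lost without control replicate 1 (2.23) or 3 (2.13) or ConA 6 h replicate 1 (2.38).

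The other growth arrest and DNA damage genes share the GADD name but not the protein family. Of 4 genes, counted with Ddit4l, a relative of Ddit4 that passed at no time, 1 rose at 1 h (25%, against 1.5% of all genes). None passed at 3 h, against 5.15% of all genes higher and 14.7% lower, and 3 rose at 6 h (75%, against 15.4%). At 3 h 1 was higher without ConA 1 h replicate 3, ConA 3 h replicate 3 or ConA 6 h replicate 3, while omitting ConA 1 h replicate 2 or ConA 6 h replicate 1 or 3 left 1 lower. Ddit3 (CHOP or GADD153), a transcription factor of endoplasmic reticulum stress, had signals of 173, 122 and 132 on the 6 h arrays, against 41.3, 46.6 and 41.5 on the control arrays (log2 change 1.71, SE 0.27, adjusted p = 0.0014), and its log2 change of 1.20 at 1 h did not pass (adjusted p = 0.077). Ppp1r15a (GADD34), which directs dephosphorylation of the translation factor eIF2alpha, was 2.53-fold higher at 1 h (log2 change 1.34, adjusted p = 0.045) and also higher at 6 h (log2 change 1.11, adjusted p = 0.013). Its call at 1 h was lost after quantile normalization (1.19) and median centring (1.24), and in 9 of the 12 fits that left out 1 array (without control replicate 1, 2 or 3, ConA 1 h replicate 1 or 2, ConA 3 h replicate 1, 2 or 3, or ConA 6 h replicate 2, with log2 changes from 1.14 to 1.5). Ddit4 (REDD1), an inhibitor of mTORC1, was 3.77-fold higher at 6 h (log2 change 1.92, adjusted p = 0.038), a call lost in 8 of the 12 such fits (without control replicate 1, 2 or 3, ConA 3 h replicate 1, 2 or 3, or ConA 6 h replicate 2 or 3, with log2 changes from 1.46 to 2.05).

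Of 22 measured p53 targets other than Gadd45a, 2 rose at 1 h (9.09%, against 1.5% of all genes). At 3 h 6 of the targets rose and 4 fell, and at 6 h 9 rose and 2 fell. Their median log2 change was 0.32, -0.39 and 0.89 at 1, 3 and 6 h, against 0.08, -0.21 and 0.02 for all genes. At 3 h the median of the list was -0.18 after quantile normalization, -0.15 after median centring, -0.15 with the mean of a gene's probe sets and -0.23 without control replicate 2, and 8 targets were lower when only brighter probe sets were tested. The antiproliferative gene Btg2 rose early (log2 change 2.98 at 1 h, adjusted p = 0.00056) and was 8.97-fold higher at 6 h (adjusted p = 5.7e-05). Plk3, a stress-responsive polo-like kinase, was 6.39-fold higher at 3 h (adjusted p = 2.5e-05), and Pmaip1 (Noxa), a BH3-only death protein, 7.99-fold higher at 6 h (adjusted p = 0.00020). At 3 h 27.3% of the targets were higher and 18.2% lower, against 5.15% and 14.7% of all genes. At 6 h these shares were 40.9% and 9.09%, against 15.4% and 12.7%. Among the targets lower at 3 h, Sesn1, which acts against oxidative stress, fell by 2.06 (adjusted p = 0.0011) and Bbc3 (Puma) by 1.52 (adjusted p = 0.0025). The number higher at 1 h was 4 without control replicate 3, and at 6 h 1 target was lower without control replicate 1 or 3, ConA 1 h replicate 2 or 3 or ConA 3 h replicate 3, and 0 without control replicate 2 or ConA 6 h replicate 1 or 3.

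Transcription factors known to control GADD45 genes, and cytokines known to induce them, rose in part from 1 h on. Of 19 measured factors 7 rose at 1 h (36.8%, against 1.5% of all genes), and in a fit of only the control and 1 h arrays 3 rose. At 3 h 11 rose and 5 fell (57.9% and 26.3%), against 5.15% and 14.7% of all genes. At 6 h 11 rose and 2 fell (57.9% and 10.5%), against 15.4% and 12.7%. Relb, an NF-kB subunit, had signals of 273, 290 and 254 on the 3 h arrays, against 13.9, 21.2 and 15.8 on the control arrays (log2 change 4.02, SE 0.16, adjusted p = 8.2e-07). Egr1 was highest at 1 h, like Gadd45b, with signals of 1482, 1425 and 827, against 38.3, 72.1 and 33.4 on the control arrays (log2 change 4.74, adjusted p = 0.00033). Jun, an AP-1 subunit, was higher at 1 h (log2 change 3.70, adjusted p = 5.8e-05), and Atf3, a stress-induced factor of the ATF/CREB family, had its largest change at 3 h (5.51, adjusted p = 0.00023). Foxo1 and Foxo3, forkhead factors that can activate Gadd45a, were lower at 3 h, by 1.49 (adjusted p = 0.0023) and 1.33 (adjusted p = 0.00065).

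Among 12 inducing cytokines 5 rose at 1 h, 7 at 3 h and 7 at 6 h (41.7%, 58.3% and 58.3%), against 1.5%, 5.15% and 15.4% of all genes. Il18 fell at 6 h (log2 change -0.78, adjusted p = 0.026), which is 8.33% of the list, against 12.7% of all genes. At 6 h 0 fell without control replicate 1 or 2 or ConA 6 h replicate 3. The median log2 change of the list at 1 h was 1.63, against 2.17 with a pseudocount in place of the floor and 3.52 with only the brighter probe sets. Il1b had signals of 631, 600 and 379 on the 1 h arrays, against 20.3, 28.0 and 22.5 on the control arrays (log2 change 4.48, adjusted p = 2.9e-05). Tnf, which induces Gadd45b through NF-kB, had all 3 control arrays at the floor. It was already higher at 1 h (log2 change at least 4.31, adjusted p = 0.012) and stood at least 20.9-fold above the floor at 3 h (adjusted p = 0.0020). Il2, the T cell growth factor that induces Gadd45g, rose to at least 16.1-fold the floor of its control arrays at 6 h (adjusted p = 0.00033), and at 1 h it did not pass (log2 change 1.52, adjusted p = 0.25). Ifng, whose production in T cells involves Gadd45b and Gadd45g, was 26.0-fold higher at 6 h (adjusted p = 3.1e-05), with 2 of 3 control arrays at the floor. Its rise was already called at 1 h (log2 change 3.41, adjusted p = 0.0017). Osm, the gene of oncostatin M, passed at no time.

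Markers of neutrophils and monocytes were higher in the same arrays as the Gadd45 genes, and in whole liver more cells of a type and more RNA per cell cannot be told apart. The summed signal of 8 neutrophil markers was 104 to 147 at 0 h, 857 to 1176 at 1 h, 1509 to 2149 at 3 h and 1667 to 2592 at 6 h, with 3, 5 and 8 of the 8 called higher at 1, 3 and 6 h. That of 6 monocyte markers was 479 to 580, 617 to 935, 1373 to 1569 and 2924 to 3812 at the same times, with 1, 4 and 5 of 6 called, and Chil3 was at the floor on all control arrays. Over all genes 1.5%, 5.15% and 15.4% were called higher at 1, 3 and 6 h. The monocyte sum was highest at 6 h, and the neutrophil sums at 3 h and 6 h overlapped. At 6 h Gadd45a and Gadd45b were below their own highest group, while Gadd45g overlapped its groups at 1 h and 3 h. Whether these cells contributed to the Gadd45 signals was not tested.

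No lymphocyte marker was called at 1 h, when only 1.5% of all genes were called higher and 0.148% lower, so little can be read from this. At 1 h all arrays of Cd3d, Cd3g and Cd8a lay above the control arrays (log2 change 1.35, 0.74 and 1.65). Those of Cd4 lay below (-0.36). The summed signal of 8 T cell markers was 61.1 to 76.7 at 0 h, 92.1 to 119 at 1 h, 79.1 to 98.3 at 3 h and 124 to 172 at 6 h, with none called at 1 h or 3 h, 3 of 8 called at 6 h, and Cd4 at the floor on all arrays at 1 h and 3 h. That of 6 natural killer and cytotoxic lymphocyte markers was 59.4 to 71.9, 73.1 to 77.3, 112 to 132 and 342 to 473 at the same times, with 0, 2 and 2 of 6 called. The genes called were the granzymes Gzma and Gzmb, and Gzmb had a mean signal of 243 at 6 h, against 5.24 at 0 h (log2 change 5.70, adjusted p = 7.8e-05). The sum of 4 B cell markers was 157 to 195 at 0 h, 97.8 to 107 at 1 h, 129 to 158 at 3 h and 228 to 303 at 6 h, and none was called. The labelled tissue was borne out by 7 hepatocyte markers, whose summed signal was 62172 to 67332 at 0 h and 67571 to 71629 at 6 h, and 0, 1 and 1 of which were called higher.

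Some markers of the resident cells of the liver sinusoid fell at 3 h and 6 h, when 14.7% and 12.7% of all genes were called lower. The sum of 7 Kupffer cell markers was 1400 to 1885 at 0 h, 1727 to 2086 at 1 h, 1067 to 1269 at 3 h and 1023 to 1392 at 6 h. None was called at 1 h, Clec4f and Vsig4 were called lower at 3 h and 6 h, and Marco, at the floor on all control arrays, was called higher at 6 h. The sum of 7 sinusoidal endothelial markers was 853 to 1779, 1547 to 1766, 809 to 896 and 848 to 996 at 0, 1, 3 and 6 h. Kdr (VEGFR2) fell, with log2 changes of -1.70 at 3 h and -2.30 at 6 h (adjusted p = 0.0015 and 0.00014), and at 6 h 3 of the 7 were called lower and 2, Lyve1 and Pecam1, higher. The sum of 7 hepatic stellate cell markers was 1746 to 2219, 1742 to 2404, 1335 to 1461 and 1175 to 1333 at the same times, with 0, 2 and 4 of the 7 called lower at 1, 3 and 6 h. Lrat, which esterifies retinol for storage, fell, with log2 changes of -3.12 at 3 h and -3.43 at 6 h (adjusted p = 0.0055 and 0.0018). The part of all these cell types in the Gadd45 signals was not tested.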

How the data were processed

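The authors deposited 1 table of linear signal intensities of 45101 probe sets. The submitters' processing notes name MAS5 version 5.0 and the study's methods name RMA, and because sorted values were not alike across arrays the intensities were read as MAS5-like and used as deposited. The manufacturer's 64 control probe sets were left out, low signals were raised to a floor at percentile 20 of all values (3.04), and log2 was taken. Symbols of the platform annotation were updated by Entrez ID for 34741 of 34945 probe sets with 1 symbol, and a gene was represented by its probe set with the highest mean. A fold is that of geometric means and is understated near the floor.

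limma 3.58.1 (R 4.3.3) was fitted once, with a mean for each of the 4 groups and moderated variances. Benjamini-Hochberg adjustment covered all features of a comparison, and a call needed an adjusted p under 0.05. The fit was tested on simulated data. The members and lists were chosen with earlier results of these data known. The names are all Gadd45 probe sets, the direct partners, of each list the 4 largest changes past the threshold with separated groups, and the 5 genes most like each member. Alternatives were quantile normalization, median centring, a pseudocount of 1 in place of the floor, only the brighter probe sets, omission of single arrays, a variance trend with intensity, the replicate number as a block, fits of 2 groups, the mean of a gene's probe sets and adjustment over all probe sets. Promoter sequences came from RefSeq (GRCm38.p6).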

Additional observations from a re-analysis of the deposited data

How the results depend on the processing

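Of the 285 log2 changes of the 5 Gadd45 probe sets computed under 19 alternatives, 150 equal the main value by construction, because the alternative changes only the variance, the tested set or an array outside the comparison. Of the other 135, 130 moved by less than the spread between arrays and none changed sign. Those that moved were Gadd45b 1420197_at at 3 h (0.88 after quantile normalization, 0.86 after median centring) and Gadd45g without control replicate 3. Leaving out 1 array at a time gave ranges of 5.57 to 7.04 at 1 h, 5.27 to 6.74 at 3 h and 5.59 to 7.05 at 6 h for Gadd45g. For the difference between Gadd45g and the main Gadd45b probe set they were -0.20 to 0.89, 1.95 to 3.04 and 1.74 to 2.83. Of 28 named list genes, 7 lost their call under at least 1 alternative and none changed direction.

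Counts over all features moved more, for causes that were not tested except where fewer arrays entered. After quantile normalization 193 probe sets and 68 genes were lower at 1 h, and at 3 h 2739 probe sets were higher and 2655 lower, as were 1447 and 1637 genes, with 11 list genes lower. After median centring 43 genes were lower at 1 h, and at 3 h 2832 probe sets were higher and 2172 lower, as were 1521 and 1251 genes, with 11 list genes lower. With only the 2 groups compared, 181 probe sets were higher and 39 lower at 1 h, as were 106 and 7 genes, with 10 list genes higher at 1 h and 4 lower at 6 h. With the brighter probe sets only, 1 list gene was lower at 1 h, as was 1 with the replicate block. Leaving out 1 array gave 382 to 638 probe sets higher and 74 to 123 lower at 1 h (both lowest without ConA 1 h replicate 2), 2521 to 4762 lower at 3 h, 1620 to 2905 genes lower at 3 h, and 11 to 19 list genes lower at 3 h and 3 to 9 at 6 h. The lowest counts at 3 h were those without control replicate 2, and the probe sets lower numbered 2691 when control replicate 1 was left out and 2757 when ConA 3 h replicate 3 was. Among the lists, the cell cycle partners had 1 gene higher at 1 h with the brighter probe sets, the variance trend or the replicate block, and 2 higher at 3 h after quantile normalization or median centring. The other GADD genes had 1 higher at 3 h after either scaling, with the brighter probe sets or with the trend, and 1 higher at 6 h in the 2-group fit. The repair and demethylation genes had 0 lower at 6 h with a pseudocount, the brighter probe sets or the 2-group fit, which also gave 0 higher at 1 h.

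Same-numbered arrays of different groups had residual correlations from -0.011 to 0.038 over 18 pairs and arrays of other numbers from -0.036 to 0.029 over 36, so the numbers do not pair the arrays. With the replicate block the call of Gadd45b 1420197_at at 1 h was lost, and those of Map3k4 and Ppp1r15a with it.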
